A study of Mus musculus with 94 samples.

Results

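Tubules of vehicle-treated mouse kidneys were compared between day 7 and day 1 after ischemia-reperfusion injury (IRI) by digital spatial profiling (DSP). The comparison held 12 tubular segments of 94 segments in the series, chosen by their labels: PanCK in the title with the group code for vehicle and day 7 (6 segments) or vehicle and day 1 (6 segments). On each day, 4 segments lay in the cortex and 2 in the medulla, and they came from 2 sections that carried the prefixes E1 and E2. All mice were C57BL/6 males, and IRI was made by clamping the pedicle of the left kidney while the other kidney was left in place. Vehicle (DMSO) was injected into the abdomen before surgery, minutes ahead of it by the methods and a day ahead of it by the sample labels. Mice killed on day 1 had no further injection. Treatment went on with daily injections in the first week for the mice killed later, so the days also differ in the number of injections. The values of 5 other groups, each with 2 sections, are given where they bear on the comparison: uninjured control kidneys, vehicle on day 14, and mice given entospletinib, an inhibitor of spleen tyrosine kinase, on days 1, 7, and 14. Regions were picked on stained sections with glomeruli avoided, and tubular areas within them were those with panCK signal, with or without CD10. The labels do not say that a prefix is 1 mouse, so the p-values measure the spread between sections.

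Tubular epithelium, above all the proximal segments that reach into the outer medulla, is the part of the kidney most readily injured by loss of blood flow. Surviving tubular cells lose their specialized transport programs, divide, and then either regain them or persist in an injured state that secretes inflammatory and fibrogenic signals. The day 1 and day 7 comparison sets the acute phase against the phase in which repair either completes or fails, and the cortex and the medulla are described apart because they were sampled apart. The profiled targets are known only by probe identifiers, which the files do not pair with genes. Groups of probes are therefore described by their levels and by their behavior in other samples, not by pathway, and the tubular label could not be checked against marker genes.

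Whole counts of unique molecular identifiers (UMIs), each standing for a single released barcode, were available for 20175 probes, and all 20175 had counts in each of the 12 segments. The study set a limit of quantification from negative probes and removed genes that were rarely detected. Here negative probes could not be identified, so that step was left out and levels near background were not set apart. Depth was not even between the days in the medulla. The 2 medullary segments of day 1 held 1863750 and 1235205 counts, the lowest of the 12, and those of day 7 held 4542901 and 4408390. The cortical segments of day 1 held 2848470 to 6159821 counts and those of day 7 held 2795876 to 5931414. Sequencing saturation was 70.2% to 79.4% over the 12 segments, and the most abundant probe took 2.94% to 4.62% of the counts. After thinning each of the 12 to the lowest total among them, the distance between the 5th and 95th percentiles of log2 CPM (counts per 1000000 counts of the segment) was 3.26 and 3.13 in the medullary segments of day 1, and 3.87 and 4.27 in those of day 7. In the cortex this distance was 3.84 to 4.38 on day 1 and 3.20 to 4.21 on day 7. Levels were thus spread over a narrower range in both medullary segments of day 1 than in either of day 7, while the cortical ranges overlapped.

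Over all probes, segments of different days were about as alike as segments of different sections of the same day. At equal totals, Pearson's r of log2 CPM across probes between a day 1 and a day 7 cortical segment had a median of 0.803 (16 pairs, 0.748 to 0.873). Cortical segments of different sections had a median r of 0.815 on day 1 and 0.809 on day 7 (4 pairs each). In the medulla the 4 pairs across days gave 0.798 to 0.818, the pair on day 7 gave 0.818, and the pair on day 1 gave 0.892. These are descriptions across probes of segments that share sections, and probes are not replicates.

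Raw counts of the regions of each section were summed, so the weight of the medulla differed between the days. Medullary segments gave 1863800 of 9968700 and 1235200 of 10724000 counts on day 1. On day 7 they gave 4542900 of 11729000 and 4408400 of 14523000. The part of this shift in the changes over all regions was not tested. With the regions so summed, 44 of 20175 probes were called between the days (0.218%), at an adjusted p under 0.05 (edgeR's quasi-likelihood test) and a change above 2-fold. Of these, 41 were higher (0.203%) and 3 lower (0.0149%) on day 7. The change of the 41 had a median of 1.41 on the log2 scale, against -0.04 over all probes. At an unadjusted p under 0.05, 1099 probes stood out, which is 5.45% and close to the share that a test gives by its own threshold. In the cortical segments the 41 had a median log2 change of 1.31 and in the medullary segments 1.58, and all 41 were positive in both. The 12 segments of the 2 days did not overlap for 21 of the 41, with day 7 higher, against 174 of all probes (0.862%). Because the same counts chose the 41, these values describe them and do not test them. Leaving out the section E1 or E2 of day 1 left 5 or 12 calls, and leaving out E1 or E2 of day 7 left 12 or 16. With a group reduced to 1 section, that section was assumed to vary like the others.

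The probe with the smallest adjusted p, RTS0079650, was higher on day 7 in every segment of both regions. Its cortical CPM was 26.3 and 27.0 in E1 and 18.9 and 17.2 in E2 on day 1, and 116 and 98.7 in E1 and 120 and 91.9 in E2 on day 7. Its medullary CPM was 34.9 and 41.3 on day 1, against 128 and 188 on day 7. The lowest of the 6 segments of day 7 thus stood above the highest of day 1 by a wide margin. The CPM of the section sums was 24.4 ± 5.50 on day 1 and 123 ± 8.96 on day 7 (SD, n = 2), a 4.79-fold change (log2 2.26, SE 0.19, adjusted p = 0.000767). The change was called in the cortex (log2 2.16, adjusted p = 0.0367) and in the medulla (log2 2.08, adjusted p = 0.00559), and the regions did not differ in it beyond their error (difference -0.12, SE 0.61, adjusted p = 0.931). It passed the threshold under all 12 alternatives tried, with log2 changes of 2.05 to 2.50.

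The second, RTS0068024, changed much more in the medulla than in the cortex. Medullary CPM was 25.2 and 23.5 on day 1, against 591 and 477 on day 7. Cortical CPM was 28.1 and 34.6 in E1 and 27.9 and 40.7 in E2 on day 1, and 243 and 164 in E1 and 106 and 88.3 in E2 on day 7. Again no segment of day 1 reached the level of any segment of day 7, and on day 7 both medullary segments lay above all 4 cortical ones. The sums gave 32.9 ± 2.68 CPM on day 1 and 285 ± 104 on day 7 (SD, n = 2), an 8.11-fold change (log2 3.02, SE 0.30, adjusted p = 0.00168). The log2 change was 4.45 in the medulla (SE 0.43, adjusted p = 0.000702) and 2.03 in the cortex (SE 0.28, adjusted p = 0.0367), and their difference of 2.49 passed its own test (SE 0.38, adjusted p = 0.00366). Without section E1 of day 1, the change over all regions no longer passed (log2 2.93, adjusted p = 0.0591).

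Of the 3 probes called lower, 2 kept the sign in both regions. RTS0067115 had a cortical CPM of 109 and 82.2 in E1 and 68.8 and 82.0 in E2 on day 1, and 33.9 and 33.6 in E1 and 39.4 and 46.4 in E2 on day 7. Its medullary CPM was 56.3 and 51.0 on day 1, against 28.4 and 31.5 on day 7. The days did not overlap in either region. Of all probes, 39.1% did not overlap in the medulla (2 segments a day) with day 7 lower, and 5.12% in the cortex (4 a day). The medullary values of RTS0067115 on day 1 lay between its cortical values of day 1 and those of day 7. The log2 change was -1.22 over all regions (SE 0.21, adjusted p = 0.0339), and it was not called in the cortex alone (-1.21, adjusted p = 0.102) or the medulla alone (-0.84, adjusted p = 0.238). This call did not hold with TMM normalization (adjusted p = 0.0524), with thinned segments (0.0553), with limma-voom on segments (0.0576), or without any 1 of the 4 sections (0.0809 to 0.464).

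RTS0070030 was also lower on day 7, from a day 1 level well above that of uninjured tubules. Its cortical CPM was 403 and 210 in E1 and 267 and 286 in E2 on day 1, and 86.8 and 117 in E1 and 65.7 and 93.7 in E2 on day 7. Its medullary CPM was 520 and 332 on day 1, against 177 and 218 on day 7. Within each region the days did not overlap, as for 39.1% of all probes in the medulla and 5.12% in the cortex with day 7 lower. Over both regions the 6 and 6 segments of RTS0070030 overlapped. The lower of its cortical E1 values of day 1 was below its higher medullary value of day 7. The log2 change was -1.35 over all regions (SE 0.24, adjusted p = 0.0409) and -1.73 in the cortex (SE 0.26, adjusted p = 0.0458). In the medulla it was -1.10 and was not called (adjusted p = 0.175). The call over all regions did not hold with TMM normalization (adjusted p = 0.133), with limma-voom on segments (0.314), or without any 1 of the 4 sections (0.269 to 0.464).

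**Figure D1:**
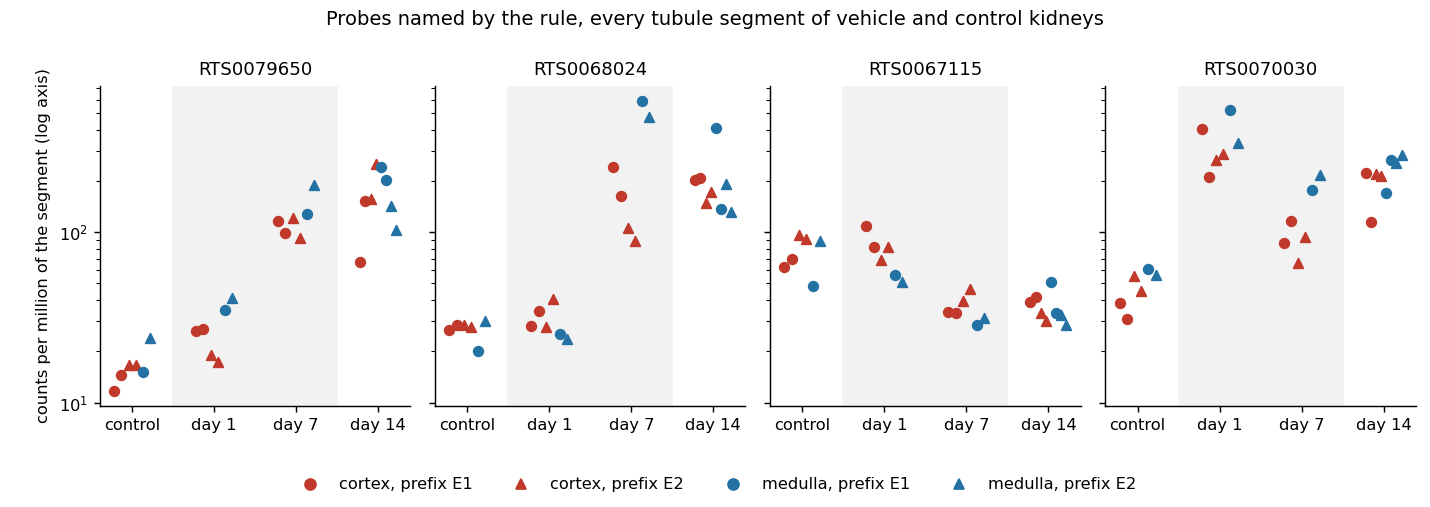
CPM on a log axis of the 4 named probes in every tubular segment of uninjured control kidneys and of vehicle kidneys on days 1, 7, and 14; each point is 1 segment, with color for the region and shape for the section prefix, and the shaded columns are the days compared. RTS0079650 and RTS0068024 stood at 17.2 to 41.3 CPM in the day 1 segments and at 88.3 to 591 CPM in the day 7 segments, whereas RTS0070030 ran from 210 to 520 on day 1 to 65.7 to 218 on day 7.

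The same 4 probes were read in the 5 other groups, whose sums entered the test only through the estimate of spread shared by all 14 sums. RTS0079650 was at 16.8 ± 3.69 CPM in uninjured control tubules and at 155 ± 7.32 in vehicle tubules on day 14. In entospletinib tubules it was at 23.5 ± 4.77 on day 1, 20.4 ± 1.91 on day 7, and 20.6 ± 2.18 on day 14 (SD, n = 2 throughout). RTS0068024 was at 26.3 ± 3.66 in control, 172 ± 20.5 in vehicle on day 14, and 38.2 ± 14.5 and 33.0 ± 1.49 with entospletinib on days 1 and 7. Its vehicle level in the medulla was 534 ± 80.4 on day 7 and 161 ± 7.56 on day 14. In the cortex it was 154 ± 82.4 on day 7 and 183 ± 32.1 on day 14. For both probes, vehicle on days 7 and 14 stood above control and above the entospletinib groups given here. RTS0067115 was at 74.7 ± 24.7 in control and 34.5 ± 5.11 in vehicle on day 14. It was at 85.7 ± 7.28 on day 1 and 42.2 ± 2.84 on day 7 with entospletinib, so over all regions its levels in both arms lay close. On day 1 its medullary level was 53.7 ± 3.77 with vehicle and 88.7 ± 29.4 with entospletinib. Its cortical level on day 1 was 84.5 ± 10.1 with vehicle and 87.3 ± 17.9 with entospletinib. RTS0070030 was at 50.1 ± 2.86 in control, 304 ± 26.6 in vehicle on day 1, 126 ± 3.89 on day 7, and 229 ± 31.4 on day 14. With entospletinib it was at 263 ± 28.8 on day 1 and at 41.8 ± 13.6 on day 7.

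In the cortex, the days differed in few probes. The test called 10 of 20175 (0.0496%), of which 9 were higher (0.0446%) and 1 lower (0.00496%) on day 7, and the median change over all probes was 0.02. The log2 changes of the 9 had a median of 1.52. At an unadjusted p under 0.05 there were 997 probes, 4.94% of those tested. The 4 and 4 cortical segments did not overlap for 1096 probes with day 7 higher (5.43%) and 1033 with day 7 lower (5.12%). TMM normalization called 3 probes, 2 higher and 1 lower, and DESeq2 on the same sums called 32, with 22 higher and 10 lower. By edgeR no probe was called without E1 or E2 of day 1 or without E1 of day 7, and 1 was called without E2 of day 7 (435 to 695 probes at an unadjusted p under 0.05 in these fits).

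In the medulla the test called 267 probes (1.32%), of which 118 were higher (0.585%) and 149 lower (0.739%) on day 7. The changes of the 118 had a median of 1.82 and those of the 149 of -1.58 on the log2 scale, while the median over all probes was -0.19. At an unadjusted p under 0.05 there were 2891 probes (14.3%). This count depended on depth: with each tubular segment above the lowest total of the 12, 1235205 counts, thinned to it, 8 probes were called (7 higher, 1 lower). In the thinned fit the 118 kept a median change of 1.74 and the 149 of -1.69, all with their sign. At an unadjusted p under 0.05 there were 112 of each list, against 947 of all 20175 probes. The median standard error over all probes was 0.59 in place of 0.30. Thinning drew on the counts that chose both lists and left E2 of day 1 as it was, so these values do not test the lists. The number of calls also depended on scaling. TMM normalization moved the median change of all probes to -0.02 and gave 265 calls, 153 higher and 112 lower, and DESeq2 gave 564, 387 higher and 177 lower. Without E1 or E2 of day 1 there were 254 or 26 calls, and without E1 or E2 of day 7 there were 135 or 36.

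**Figure D2:**
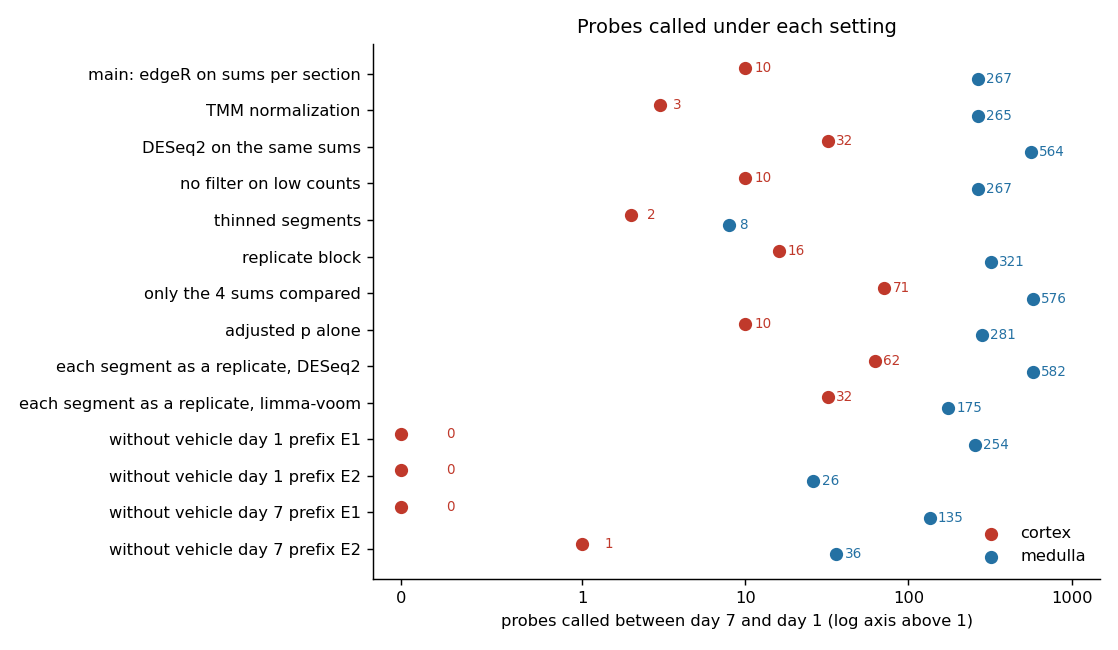
Number of probes called between day 7 and day 1 (x axis, logarithmic above 1) in cortical (red) and medullary (blue) tubules, for the test on section sums and for each alternative. Medullary counts ran from 8 with thinned segments to 582 with each segment as a replicate in DESeq2, and cortical counts from 0 to 71, with fewer cortical than medullary calls under every setting shown.

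The difference between the regions was then tested itself, in a fit with the section as a term. The change from day 1 to day 7 differed between medulla and cortex for 510 of 20175 probes at an adjusted p under 0.05 (2.53%), with 229 where the medullary change was the more positive (1.14%) and 281 where it was the more negative (1.39%). The difference had a median size of 1.40 and ran from -3.57 to 3.30 on the log2 scale. For 489 of the 510 the larger change was in the medulla, where their median absolute change was 1.19, against 0.26 in the cortex. Over all probes the median absolute change was 0.31 in the medulla and 0.12 in the cortex. For 412 of the 510 the changes had opposite signs, 166 up in the medulla and 246 down. The 510 were chosen by the size of this difference, which itself favors opposite signs and a larger change in the region with the larger error. In the fits of each region the median standard error over all probes was 0.30 in the medulla and 0.23 in the cortex. The shares of opposite signs and of larger medullary changes over all probes were not counted, so the 412 and the 489 are descriptions only. TMM normalization turned the balance of these calls, to 328 more positive and 124 more negative in the medulla, and DESeq2 gave 678 and 80. Thinning left 19 calls, and leaving out E1 or E2 of day 1 gave 530 or 42, and E1 or E2 of day 7 gave 278 or 31. Depth and the range of levels moved with this difference, as given above for the 2 medullary segments of day 1, and their part in it beyond these values was not tested.

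**Figure D3:**
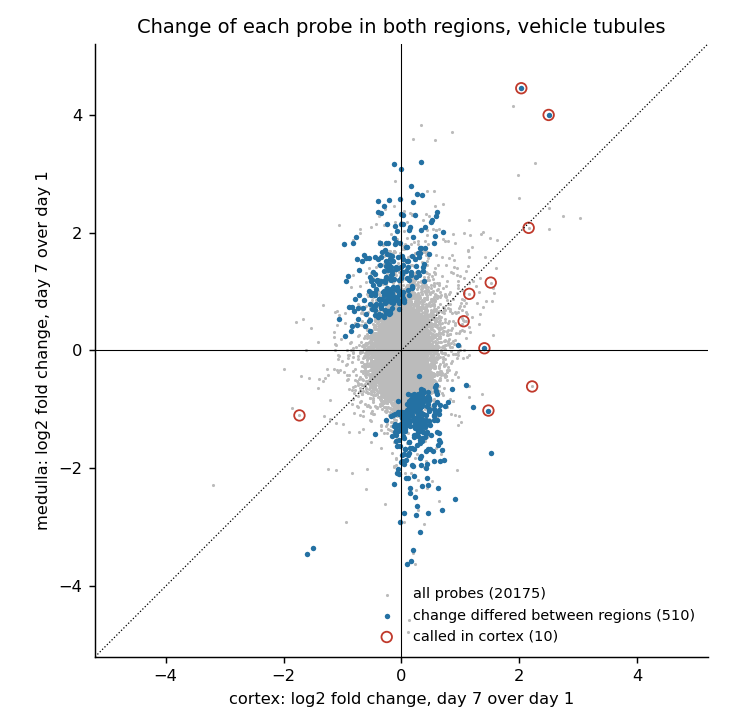
Log2 fold change of each of 20175 probes from day 1 to day 7 in cortical (x axis) and medullary (y axis) vehicle tubules; blue points are the 510 probes whose change differed between the regions, red circles the 10 called in the cortex, and the dotted line marks equal change. Most blue points lie along the vertical axis, with medullary changes of either sign and cortical changes near 0.

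The regions shared 3 calls, all higher on day 7 in both, where at most the 10 called in the cortex could be shared. They were 33.3% of the 9 called higher in the cortex, beside 0.585% of all probes called higher in the medulla. They were 2.54% of the 118 called higher in the medulla, beside 0.0446% of all probes called higher in the cortex. In the cortical segments the 118 had a median change of 0.27 (all probes 0.02), and 89 were positive. The 149 probes called lower in the medulla had a median cortical change of 0.14, and 109 were positive. Of all 20175 probes, 10861 were positive in the cortex. In the cortex 0 of the 149 were called in either direction by edgeR, and 8 were positive (2.73% of all probes were) and 9 negative (2.21%) at an unadjusted p under 0.05. The cortical and medullary segments came from the same sections.

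The probes called in the medulla differed in their usual level. In uninjured control medulla, the 118 called higher had a median of 6.32 log2 CPM and the 149 called lower a median of 4.16, with 4.64 over all probes. Of the 118, 91.5% lay above the median of all probes, and of the 149, 29.5%. The change followed the control level across all probes as well. With the probes ordered by control level into 5 bins of 4035, the lowest bin had a median medullary change of -0.38 and held 52 of the 149 lower calls. The highest bin had a median change of 0.12 and held 83 of the 118 higher calls. In the cortex the order was the reverse and smaller, from 0.09 in the lowest bin to -0.13 in the highest. In entospletinib medulla it ran from 0.21 in the lowest bin to -0.00067 in the highest. This order in vehicle medulla goes with the narrower range of levels in the 2 day 1 segments and with their lower totals, whose part in it was not tested.

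**Figure D4:**
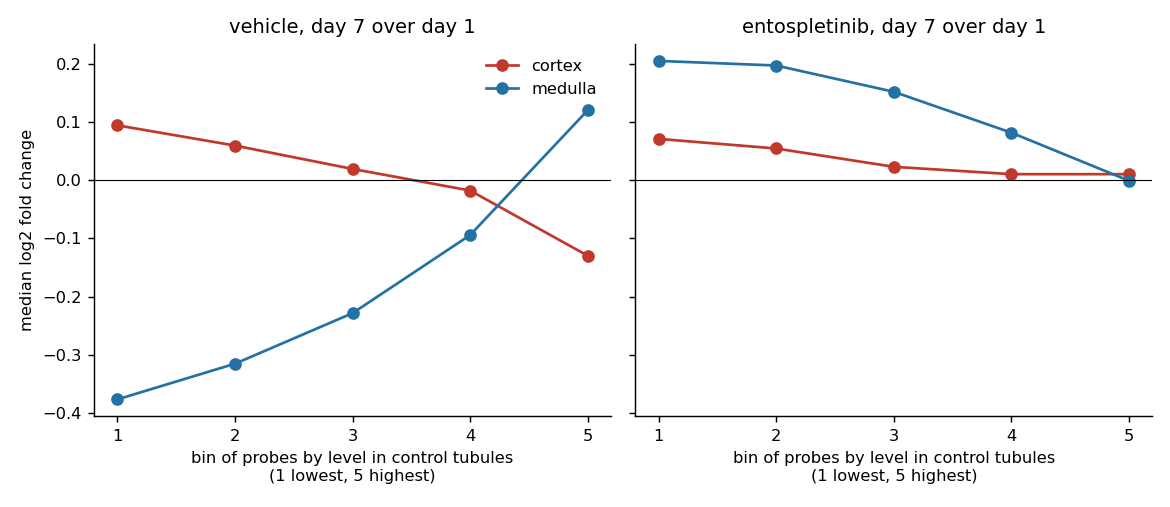
Median log2 fold change from day 1 to day 7 (y axis) in 5 bins of 4035 probes each, ordered by their level in uninjured control tubules of the same region (x axis), for vehicle (left) and entospletinib (right). In vehicle medulla (blue) the median rose from -0.38 to 0.12 with the control level, and in vehicle cortex (red) it went from 0.09 to -0.13.

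Set beside the uninjured control, both medullary sets were away from it on day 1, and on day 7 the 149 lay near it and the 118 above it. The 149 called lower had a median of 4.10 and 4.23 log2 CPM in the control sections and of 5.44 and 6.41 in those of day 1. On day 7 it was 4.54 and 4.12, and on day 14 it was 5.06 and 5.07. The 118 called higher had a median of 6.60 and 6.28 in control, 5.17 and 5.09 on day 1, 6.87 and 7.19 on day 7, and 6.23 and 6.52 on day 14. On day 7 the 118 thus stood above control in both sections, and on day 14 the 149 did. With entospletinib, the 149 stood at 4.35 and 4.46 on day 1 and 4.36 and 4.20 on day 7, and the 118 at 6.12 and 6.06 on day 1 and 6.18 and 6.53 on day 7. Over all probes the median in medulla was 4.37 to 4.83 in the 14 sections.

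Tested against control in the medulla, 1214 probes were called on day 1 (6.02%) and 347 on day 7 (1.72%). The 149 had a median change from control of 1.76 on day 1, with 130 called higher (2.88% of all probes were), and of 0.08 on day 7, with 1 called higher and 2 lower. The 118 had a median of -1.30 on day 1, with 64 called lower (3.14% of all probes), and of 0.33 on day 7, with 32 called higher (1.23%) and 1 lower (0.486%). These comparisons share the sums that chose the probes, so they show from which side the change came and are no test of it. Day 14 against control compares other sums, within the same fit and its shared estimate of spread. There the 149 had a median of 0.61 in the medulla, with 50 called higher (4.28% of all probes) and 3 lower (3.78%), and the 118 had a median of -0.17, with 29 called higher and 33 lower, while the median of all probes was -0.30.

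**Figure D5:**
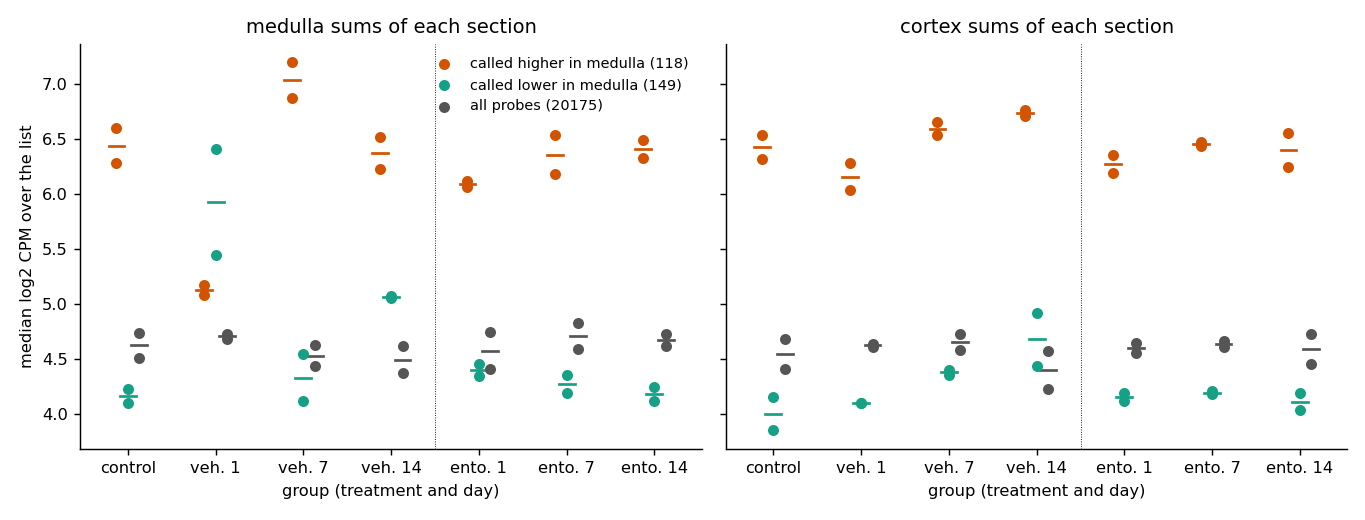
Median log2 CPM (y axis) over the 118 probes called higher (orange) and the 149 called lower (green) in vehicle medulla on day 7, and over all 20175 probes (gray), in medullary (left) and cortical (right) sums of each of the 2 sections per group; bars are group means, and veh. and ento. stand for vehicle and entospletinib with the day. In the medulla the green points rose from 4.10 and 4.23 in control to 5.44 and 6.41 in vehicle on day 1. The orange points fell to 5.17 and 5.09. In the cortex neither set left its control level by as much on day 1. Both sets were chosen in the medullary sums, so this contrast between the regions is no test.

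The 41 probes called higher over all regions followed another course. Their median was 4.73 and 4.60 log2 CPM in control sections, 4.94 and 4.97 on day 1, 6.36 and 6.33 on day 7, and 7.38 and 7.44 on day 14. They were thus near the control level on day 1 and higher on each later day. Against control, all 41 were called higher on day 14 (3.53% of all probes were), with a median of 2.61, in sums that entered their choice only through the shared estimate of spread. They were called in both regions, 37 of 41 in the cortex (2.33%) and 40 of 41 in the medulla (4.28%). On day 1, 2 of the 41 were called higher than control (0.149%), and on day 7, 38 were (0.848%), in sums that chose them. In the control their median lay at 4.67 in the cortex and 4.69 in the medulla, against 4.55 and 4.64 over all probes.

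In entospletinib tubules the same 41 probes had a median change near 0 between day 1 and day 7. There 49 of 20175 probes were called (0.243%), 2 higher (0.00991%) and 47 lower (0.233%). Of the 41, by edgeR 0 were called higher and 1 lower, 8 were positive (4.17% of all probes) and 6 negative (4.14%) at an unadjusted p under 0.05, and the median change was 0.0022 against 0.09 over all probes. Their median level was 4.75 and 5.01 log2 CPM on day 1 and 4.87 and 4.88 on day 7. The 3 probes called lower in vehicle were all negative with entospletinib as well, with a median of -0.98, and 1 of them was called. The 118 and the 149 probes of the vehicle medulla had median changes of 0.22 and -0.10 in entospletinib medulla, against 0.15 over all probes. By edgeR 0 of the 118 were called higher there (0.0149% of all probes were) and 34 were positive at an unadjusted p under 0.05 (3.43%). Of the 149, 1 was called lower (0.114%) and 28 were negative at an unadjusted p under 0.05 (3.83%). At an unadjusted p under 0.05, the shares of both lists were above those of all probes.

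The difference between the arms was tested over all regions and then, as an addition made after the data were seen, in each region. In the sums over all regions the medullary share of the counts was larger on day 7 with vehicle, as given above. With entospletinib, medullary segments gave 10109000 of 16724000 and 11699000 of 25154000 counts on day 1. On day 7 they gave 8962300 of 19093000 and 5637900 of 20231000. The part of these shares in the difference between the arms was not tested. The change from day 1 to day 7 differed between vehicle and entospletinib for 21 probes at an adjusted p under 0.05 (0.104%), and for all 21 the vehicle change was the more positive. By edgeR 0 were the other way, with 244 such probes at an unadjusted p under 0.05. DESeq2 called 110, of which 3 were the other way. In the medulla alone 33 were called (0.164%), of which 12 were among the 21. The vehicle change was the more positive for 25 (0.124%) and the more negative for 8 (0.0397%), and the median difference over all probes was -0.31, against -0.01 with TMM normalization, which called 41 and 10. In the cortex alone 0 were called by edgeR, with 363 at an unadjusted p under 0.05, and 13 by DESeq2. For the 21 the vehicle change had a median of 1.41 and the entospletinib change of -0.62, against -0.04 and 0.09 over all probes. Of the 21, 19 were positive with vehicle and 0 with entospletinib. This difference in the same sums chose the 21 and itself favors opposite signs, so these values only describe the 21. Both RTS0079650 (difference 2.42, SE 0.26, adjusted p = 0.00654) and RTS0068024 (difference 3.21, SE 0.40, adjusted p = 0.0143) were among them. For RTS0067115 (-0.24, SE 0.29, adjusted p = 0.992) and RTS0070030 (1.29, SE 0.34, adjusted p = 0.416) no difference was shown. Leaving out E1 or E2 gave 3 or 1 calls for vehicle day 1, 4 or 9 for vehicle day 7, 60 or 3 for entospletinib day 1, and 0 or 0 for entospletinib day 7 (by edgeR 787 and 502 at an unadjusted p under 0.05 in the last pair).

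Macrophage segments, the areas with IBA1 signal in the same regions, gave a further reading. In sums over many cells fewer cells of a type and less RNA per cell cannot be told apart. In the 5 other groups, 414 of 20175 probes were called between macrophage and tubular segments (2.05%), 337 of them higher in macrophages (1.67%). Of the 41 probes higher on day 7, 20 were among these 337, with a median of 0.98 for macrophage over tubule against -0.02 over all probes. Of the 149 called lower in the medulla, 66 were, with a median of 0.76. Of the 118 called higher in the medulla, 8 were, and 9 were among the 77 higher in tubules (0.382%), with a median of -0.65. The part of macrophage RNA in the tubular changes was not tested. For the named probes, macrophage over tubule was 0.11 for RTS0079650, -0.37 for RTS0068024, and -0.23 for RTS0067115 (adjusted p = 0.838, 0.329, and 0.142, edgeR). For RTS0070030 it was 0.47 at an adjusted p = 0.0115 (edgeR), higher in macrophages by less than the 2-fold that a call required.

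Within the macrophage segments of vehicle kidneys, 292 of 18541 probes were called between day 7 and day 1 (1.57%), 194 higher (1.05%) and 98 lower (0.529%). All 41 probes were positive there, with a median of 1.83 against 0.05 over all probes, and 21 were called higher. The 3 probes called lower were negative, and 2 were called. In medullary macrophage segments, where 9439 probes passed the filter, 109 of the 118 could be tested and had a median change of 1.11, with 14 called higher (0.89%). Of the 149, 123 could be tested and had a median of -0.58, with 16 called lower (0.424%). Medullary macrophage sums held 314410 and 185450 counts on day 1 and 556430 and 771300 on day 7. These segments share their sections and regions with the tubular ones, so they are no independent repeat. The direction between regions was also read in the other groups: medulla over cortex in the 5 other groups had a median of -0.13 for the 118 and 0.15 for the 149, with 1 called lower and 0 called, beside 0.06 over all probes, where 138 were called (0.684%).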

How the data were processed

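DSP counts from 12 tubular segments were analyzed, with the other 36 tubular and the 46 macrophage segments as context. The authors deposited UMI counts per probe, made by the GeoMx NGS Pipeline and neither normalized nor background corrected; the labels name mm10 and R 4.3.1. Counts of a section's segments were summed, filtered by filterByExpr (minimum count 10, minimum total 15; all 20175 probes stayed in tubules), scaled with upper-quartile factors, and compared with edgeR 4.0.16 (quasi-likelihood, robust, in R 4.3.3) over 14 sums, or 28 for the regional difference, with Benjamini-Hochberg adjustment. Calls required a log2 change beyond 1 in either direction at an adjusted p under 0.05; differences of changes used the adjusted p alone. Log2 CPM used a prior count of 2. Named probes were the 2 higher and 2 lower with the smallest adjusted p and the same sign in both regions. Comparisons and lists were chosen with earlier results of these data known. The 2 samples that the study excluded are not named and were kept. Alternatives were TMM, DESeq2 1.42.0, limma-voom 3.58.1, no filter, thinning, a replicate block, and left-out sections. Scripts were tested on simulated counts.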

Additional observations from a re-analysis of the deposited data

Results flagged for a closer look

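The change from day 1 to day 7 differed between medulla and cortex for 510 of 20175 probes and between vehicle and entospletinib for 21, each by a test of the difference itself. Among the named probes, the medullary minus the cortical log2 change was 2.49 for RTS0068024. The vehicle minus the entospletinib change was 2.42 for RTS0079650 and 3.21 for RTS0068024. Across 36 sets of 4 or 6 segments (totals, saturation, aligned share, top probe, median count, and CPM of the named probes on each day), no single segment stood apart by Dixon's test, which flags about 1 set in 20 by chance.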

How the results depend on the processing

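With 2 sections per group, the counts of calls moved with most settings, and low counts limit the medulla of day 1. Over all regions the 44 calls became 78 with DESeq2, 24 with thinned segments, 77 with only the 4 sums compared, 89 with each segment as a replicate in DESeq2, 13 with limma-voom, and 5 to 16 without a section. The 10 cortical calls became 3 with TMM, 32 with DESeq2, 2 with thinning, 71 with only the 4 sums, 62 with segments in DESeq2, 32 with limma-voom, and 0 to 1 without a section. The 267 medullary calls became 564, 8 (thinning), 576, 582 (segments in DESeq2), 175 (limma-voom), and 26 to 254 without a section. The regional difference gave 19 calls with thinning and 31 to 530 without a section. The difference between arms gave 110 with DESeq2 and 0 to 60 without a section. In the medulla alone it gave 33, with TMM 51, with DESeq2 254, and with thinning 5, and in the cortex alone 0 (363 at an unadjusted p under 0.05 by edgeR), with TMM 0 (347), with DESeq2 13, and with thinning 1; these regional fits were chosen after seeing the data. The filter removed no probe, so dropping it changed nothing. The log2 changes of the named probes kept their sign under all 12 alternatives. The causes of these shifts were not tested.

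With the prefix as a replicate block, there were 54 calls over all regions, 16 in the cortex, 321 in the medulla, and 33 between arms. Region numbers run on through all groups within each prefix, but the labels do not say what a prefix marks. The deviations of same-prefix sections of days 1 and 7 correlated at 0.17 over all regions, 0.15 in the cortex, and -0.094 in the medulla. Over all regions the 21 pairs of groups ran from -0.55 to 0.72, and 15 exceeded 0.1. In the medulla they ran from -0.51 to 0.62, and 11 of 21 exceeded 0.1.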
